A study of Mus musculus with 6 samples.

Results

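The 10 circadian clock genes Arntl, Clock, Per1, Per2, Cry1, Cry2, Nr1d1, Nr1d2, Dbp and Tef were followed in the soleus, a postural muscle of mainly slow fibres. They were found by symbol: 12 of 12488 probe sets, the sets of probes by which an Affymetrix array measures a transcript, are annotated with exactly 1 symbol that is one of these 10. The series concerns skeletal muscle and estrogen receptor beta, a nuclear receptor whose gene is Esr2. Total RNA of male mice was hybridised to 6 arrays, 3 of C57BL/6 wild type and 3 of BERKO mice, which lack that receptor. The labels give no strain for the knockout, no age and no time of day at collection. Nothing in them ties a sample to a separate animal, and a p-value therefore measures only the spread between these samples, which may be technical. Replicates are numbered in order of deposit. Replicate 2 of each group carries a title prefix that the other 4 arrays do not share, and the meaning of that prefix is not given.

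The clock is a transcriptional loop that most cells run. The proteins of Arntl (also called BMAL1) and Clock pair, bind E-box sequences and turn on the Per, Cry and Nr1d genes as well as Dbp and Tef. PER and CRY proteins then inhibit that pair, and the REV-ERB receptors made from Nr1d1 and Nr1d2 repress Arntl through elements called ROREs. In mouse peripheral tissues, muscle included, the Arntl transcript is therefore in antiphase to Nr1d1 and Dbp, while Per2 peaks after both.

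The control letters of this loop were looked for in RefSeq start-site windows of mouse build GRCm38.p6, each running from 250 bases before a transcript start to 50 after it. Windows were held for 9 of the 10 genes, 14 windows in all. The stretches are shown because the loop acts on its members through such letters. Both strands were read, each stretch is 30 bases on the strand of its gene, and the capitals mark the match. The E-box CACGTG, which reads the same on both strands, was found in windows of Per1, Cry1 and Tef. A window of Arntl held TAGGTCA, the core of a RORE, starting 31 bases after the transcript start.

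Arntl RORE core, plus strand, chr7:113207530-113207559: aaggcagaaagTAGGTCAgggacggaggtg
Per1 E-box, plus strand, chr11:69098771-69098800: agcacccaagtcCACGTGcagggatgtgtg
Cry1 E-box, minus strand, chr10:85185097-85185126: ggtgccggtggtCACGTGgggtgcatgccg
Tef E-box, start site further upstream, plus strand, chr15:81802534-81802563: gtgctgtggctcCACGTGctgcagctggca
Tef E-box, start site further downstream, plus strand, chr15:81811264-81811293: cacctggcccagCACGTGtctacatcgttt

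Of all 32851 windows of this length, 7.15% held CACGTG and 2.61% held TAGGTCA. The variant CACGTT stood in 4.68% of them and in windows of Cry1, Cry2 and Nr1d1, read on the other strand as AACGTG. The Nr1d1 match begins 28 bases before the start. The Cry1 match lies just upstream of its E-box. It begins 79 bases before the start, and the E-box begins 60 before it.

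Nr1d1 variant E-box, minus strand, chr11:98775388-98775417: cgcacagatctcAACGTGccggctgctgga
Cry1 variant E-box, minus strand, chr10:85185116-85185145: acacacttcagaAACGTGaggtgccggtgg

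The D-box letters TTATGTAA or TTACGTAA, bound by the proteins of Dbp and Tef, stood in 1.06% of all windows and in 0 of the 14 member windows. The windows of Dbp, Clock and Nr1d2 held none of these letters. A match is a run of letters, not a proven site.

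The mean of the middle values lay between 100.07 and 100.08 on the 6 arrays. The authors' scaling sets that value, so it is no measure of quality. The median signal was 36.8 on knockout replicate 2 and 39.2 to 40.5 on the other arrays. The 3'/5' signal ratio lay between 0.953 and 1.12 for the Gapdh control and between 0.813 and 1.05 for the actin control. Bright markers of both fibre types were present. The slow troponin Tnnt1 had a probe set at 10510 and 11807 (means of wild type and knockout). The fast calcium pump Atp2a1 had a probe set at 8349 and 9744. Not all markers were alike in the 2 groups. Of 7 fast markers 4 were higher and 3 lower in the knockout, and of 7 slow markers 6 were higher and 1 lower. None passed an adjusted p of 0.05 (limma). Among the lower ones, the fast heavy chain Myh4 averaged 1927 in wild type and 358.5 in the knockout, and Actn3 583.8 and 225.3. The Esr2 probe set read 1.3 to 8.4, near or below the level of 7.8 under which values were not told apart, so it does not check the genotype labels.

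Of the 12 member probe sets, 10 lay above that level on all 6 arrays. The other 2, both of Cry1, read 0.1 to 6.6 and are not a measure of transcript. Testing required a signal over 39.4, the median of the whole data set, on 3 or more arrays. This left 9 probe sets for 9 genes. Per2 was above that value on 1 array only and is given as values without a test.

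Arntl and Clock form the activating arm. Arntl read 94.8, 36.6 and 42.1 in wild-type replicates 1 to 3 and 55.9, 34.2 and 52.7 in knockout replicates 1 to 3. Wild-type replicate 1 stood far above the other 5 arrays, replicate 2 of each group was the lowest, and the groups overlapped. Its range over the 6 arrays, 1.47 on the log2 scale, was wider than that of 94.1% of the probe sets tested. Clock, the partner of Arntl, read 57.5, 45.3 and 46.8 on the wild-type arrays and 49.7, 50.5 and 61.2 on those of the knockout. Those values overlap and their range of 0.43 lies below the median range of all probe sets tested, 0.58.

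**Figure D1:**
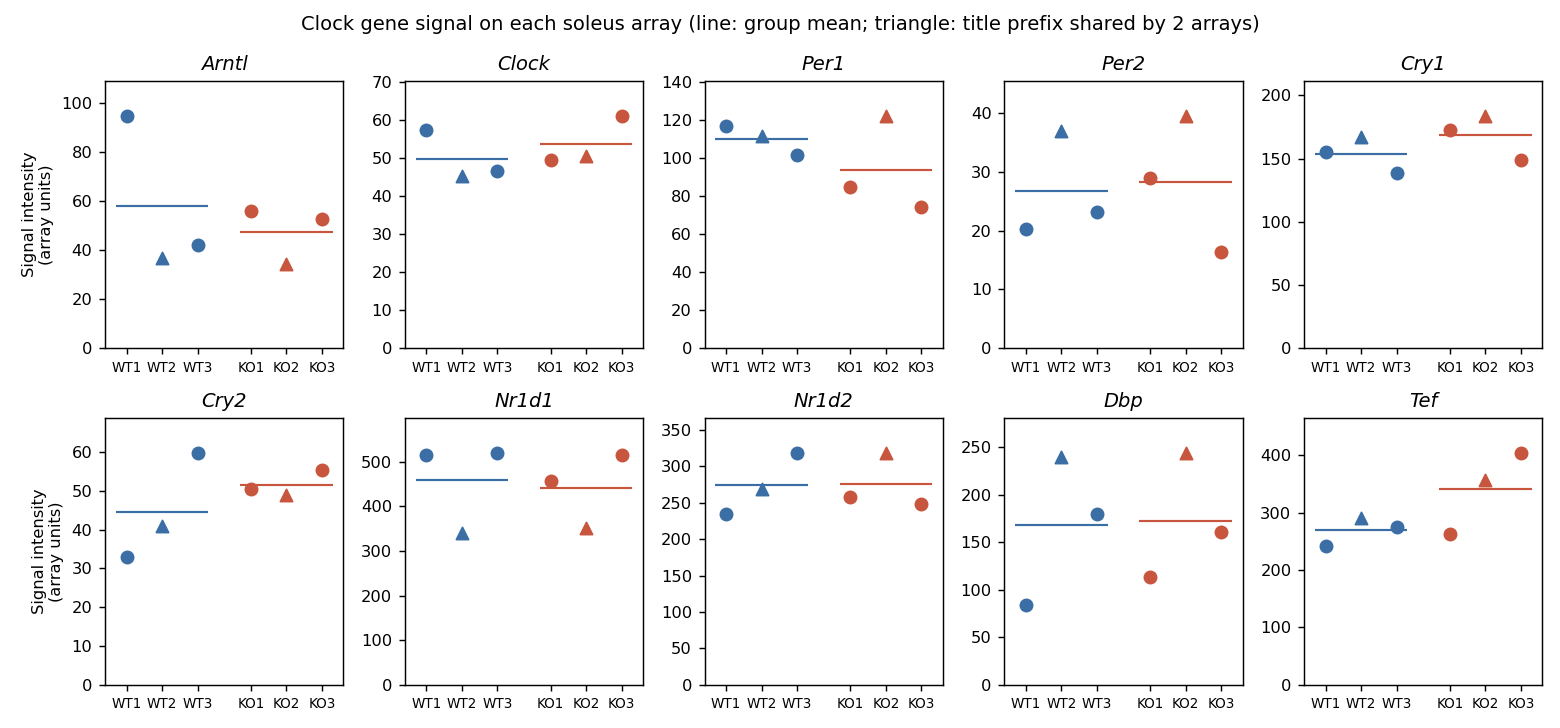
Signal intensity (vertical axis, array units, from 0) of the 10 clock genes on each of the 6 arrays, with wild type (WT) in blue, Esr2 knockout (KO) in red, group means as lines and the 2 arrays of the smaller title prefix as triangles. The groups overlap in each panel. The triangles are the 2 highest points for Dbp and Per2 and the 2 lowest for Arntl and Nr1d1.

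Dbp and Tef encode transcription factors that carry the rhythm to output genes. Dbp read 83.9, 239.9 and 180.0 on the wild-type arrays and 113.1, 244.5 and 160.5 on those of the knockout. Here replicate 1 was the lowest and replicate 2 the highest of each group, and the highest array stood at 2.91 times the lowest. The log2 range of 1.54 exceeded that of 94.8% of the probe sets tested. Tef varied less, with 242.3, 290.0 and 274.7 on the wild-type arrays and 262.4, 356.6 and 404.5 on those of the knockout. Both of the highest Tef values were from knockout arrays, but knockout replicate 1 lay within the wild-type range.

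The Per and Cry genes encode the inhibitors of the loop. Per1, which also answers quickly to stress and glucocorticoid signals, read 116.9, 111.6 and 101.4 on the wild-type arrays and 84.6, 122.0 and 74.1 on those of the knockout. Per2 read 20.3, 36.9 and 23.1 on the wild-type arrays and 28.9, 39.5 and 16.3 on those of the knockout, at a level where the array resolves little. In Per2 replicate 2 of each group was the highest, and in Per1 it was the highest of the knockout only. Cry1 ran from 138.3 to 183.8 with overlapping groups, on a probe set whose name carries the suffix for probes shared by similar sequences. Cry2 ran from 32.9 to 59.9, with both the lowest and the highest array in wild type.

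The REV-ERB genes form the arm that represses Arntl. Nr1d1 read 514.4, 340.3 and 520.6 on the wild-type arrays and 456.2, 351.6 and 515.0 on those of the knockout. It was lowest in replicate 2 of both groups, and the other 4 arrays lay between 456.2 and 520.6. Its gene overlaps that of Thra, a thyroid hormone receptor, in the RefSeq table. Nr1d2 read 235.0, 268.6 and 318.7 on the wild-type arrays and 257.7, 318.8 and 248.5 on those of the knockout, without the drop of Nr1d1 in replicate 2.

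Dbp and Arntl ran in strict opposition from array to array. Ordered from the lowest Dbp, the arrays were wild-type replicate 1, knockout replicates 1 and 3, and wild-type replicate 3, followed by replicate 2 of wild type and of the knockout. Arntl fell at each step of that order, so wild-type and knockout arrays lay interleaved along a single sequence. Spearman's rho was -1.0 (exact permutation p = 0.0028, the smallest that rho can give on 6 arrays; adjusted p = 0.025 over the 9 members compared with Dbp) and Pearson's r of the log2 values was -0.96 (exact permutation p = 0.0014; adjusted p = 0.0125). The adjustment covers only pairs with Dbp, other pairs of members were not compared, and the members were chosen with earlier results of these data known. The permutation took all orders of the arrays as equally likely, although both genes separated by title prefix. Without wild-type replicate 1 and knockout replicate 1, the arrays farthest from the median of Dbp, r was -0.96. Among the 4 arrays that share a title prefix r was -0.93, and the prefix of the other 2 holds too few arrays for a value. The exactly opposite order was found for 18 of the 6369 probe sets tested, 0.283%, of which Arntl is 1. After quantile normalization or scaling to a common median rho was -0.94 (exact permutation p = 0.017 in each).

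**Figure D2:**
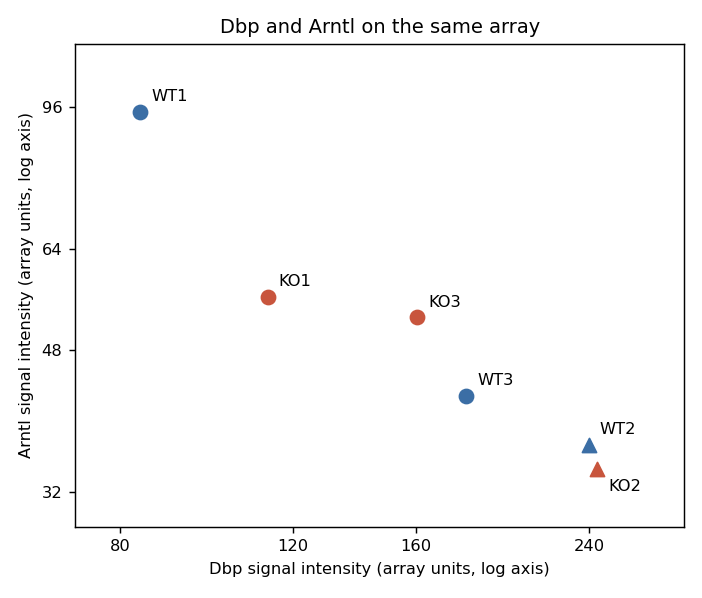
Signal intensity of Dbp (horizontal, log axis) against that of Arntl (vertical, log axis) on each of the 6 arrays, with wild type in blue, Esr2 knockout in red and the smaller title prefix as triangles. Arntl goes from 94.8 where Dbp is 83.9 to 34.2 where Dbp is 244.5, and the genotypes are interleaved.

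Over all 6 arrays no other member passed after adjustment, and most relations with Dbp rested on a few arrays. Nr1d2 had a rho of 0.89 with Dbp (exact permutation p = 0.033; adjusted p = 0.15) and an r of 0.71. Per2 had an r of 0.58 and a rho of 0.71 (exact permutation p = 0.23 and 0.14; adjusted p = 0.42 and 0.39). Nr1d1 had an r of -0.70 and a rho of -0.43 (exact permutation p = 0.13 and 0.42; adjusted p = 0.38 and 0.63). The remaining 5 members had r between -0.52 and 0.57, with adjusted p of r from 0.42 to 0.69 (exact permutation tests). Without wild-type replicate 1 and knockout replicate 1, r was 0.99 for Per2, -0.97 for Nr1d1 and 0.91 for Per1, on 4 arrays only. The unadjusted p of r (exact permutation) was then 0.042 for Per2, Per1 and Arntl and 0.25 for Nr1d1. The value of 0.042 is the smallest that r can give on 4 arrays, and no adjustment over the members was made there. There rho was -0.6 for Nr1d1 and -1.0 for Arntl. In the same arrays r was 0.86 for Cry1, 0.38 for Nr1d2 and -0.64 for Clock, and it turned to -0.79 for Cry2 and -0.29 for Tef. Among the 4 arrays that share a prefix the picture differed again. There r was -0.20 for Per2, 0.30 for Nr1d1, -0.51 for Per1 and -0.63 for Cry1, each turned, while it was 0.94 for Cry2, 0.74 for Nr1d2, 0.61 for Tef and -0.28 for Clock. Arrays share the authors' scaling, and members measured on an array are not independent of each other.

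The day-phase genes Dbp, Per1, Per2 and Nr1d1 did not move as a single group. Signals of different probe sets cannot be set against each other, so each was taken as its log2 deviation from its own mean over the 6 arrays. An index of the mean deviation of these 4 genes minus that of Arntl and Clock was -0.76, 0.53 and 0.25 in wild-type replicates 1 to 3. In knockout replicates 1 to 3 it was -0.20, 0.57 and -0.39. It averaged 0.0054 ± 0.68 without and -0.0054 ± 0.51 with the deletion (SD, n = 3 each). These means mirror each other because deviations were taken from the mean of all 6 arrays. They lay far closer to each other than the arrays within a group. Replicate 2 was the highest of each group, at the day-phase end of the index. On the arrays of replicate 2 Nr1d1 opposed the other 3. It deviated by -0.38 and -0.33, where Dbp deviated by 0.59 and 0.62 and Per2 by 0.50 and 0.59. Per1 deviated by 0.16 and 0.28 there. On the other 4 arrays Nr1d1 had an r of 0.30 and a rho of 0.8 with Dbp. In wild-type replicate 3 it deviated by 0.23 with Dbp at 0.18, and in wild-type replicate 1 by 0.22 with Dbp at -0.92. Dbp minus Arntl alone ran from -1.86 in wild-type replicate 1 to 1.16 in knockout replicate 2. For it the knockout mean minus the wild-type mean was 0.28.

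**Figure D3:**
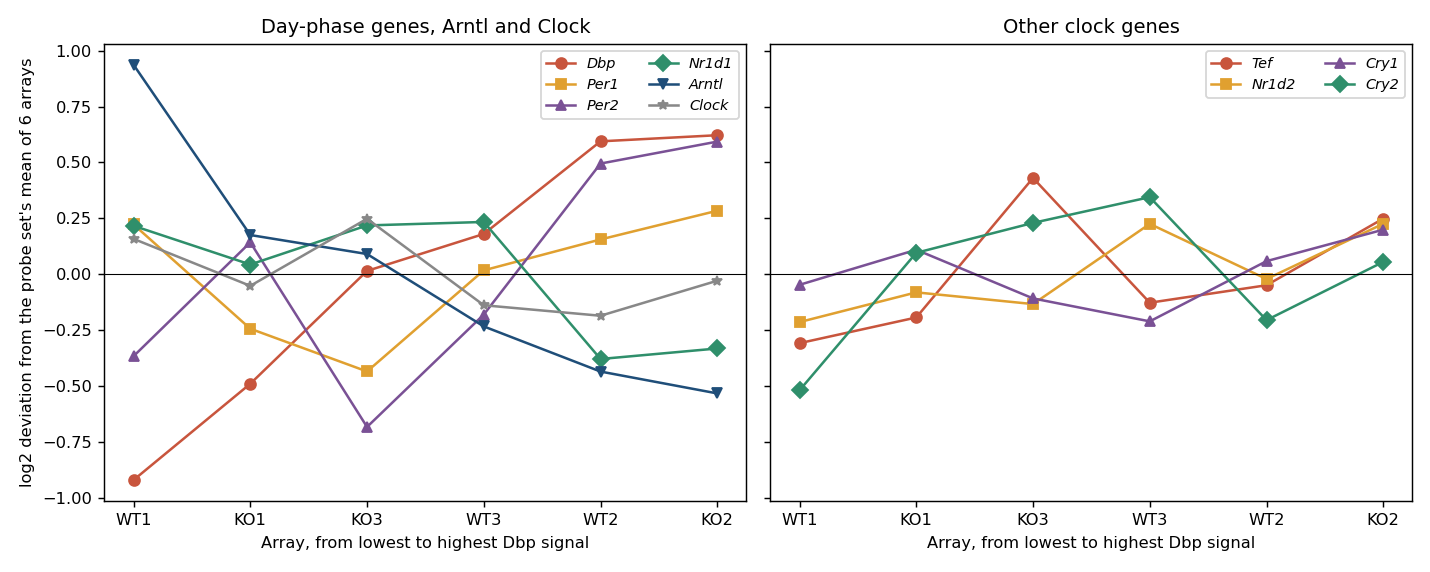
Log2 deviation of each clock gene from its own mean over 6 arrays (vertical axis), with the arrays placed from lowest to highest Dbp signal (horizontal axis), for the day-phase genes with Arntl and Clock (left) and the other members (right). Arntl falls at every step as Dbp rises, and Per2 is up and Nr1d1 down on the last 2 arrays, replicate 2 of each group.

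By title prefix, 3 of the 9 members tested did not overlap between the smaller prefix, held by replicate 2 of both groups, and the larger one. Over all probe sets tested 17.7% did not overlap in this way. Dbp averaged 242.2 on the 2 arrays of the smaller prefix and 134.4 on the other 4. Arntl averaged 35.4 against 61.4 and Nr1d1 346.0 against 501.6. Per2, which was not tested, also did not overlap, at 38.2 against 22.2. Both genotypes are present under each prefix and under the smaller one Dbp stood at 239.9 (wild type) and 244.5 (knockout).

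Summed markers of slow and fast fibres, endothelium and fibroblasts did not overlap between the prefixes either, but a sum is set mostly by its brightest genes. Taken singly, 4 of 7 slow, 1 of 7 fast, 1 of 6 endothelial and 0 of 5 fibroblast markers did not overlap. The share over all probe sets tested was 17.7%. The summed signal of 7 slow fibre markers was 56990 to 61819 on the smaller prefix against 44351 to 54306, and that of 7 fast markers 24516 to 25626 against 21104 to 22742. Of those fast markers 3 of 7 were higher on the smaller prefix, with a median log2 difference of -0.0064, and 1 did not overlap. Myh4, the heavy chain of the fastest fibres, averaged 2231 against 598.6, but its arrays overlapped. It read 3671 in wild-type replicate 2 and 790.7 in knockout replicate 2, while wild-type replicate 1, of the larger prefix, read 1610. Pvalb averaged 2405 against 1289 without overlap. The brightest probe sets of Atp2a1, Tnnt3 and Myh1 were slightly lower on the smaller prefix. Another Atp2a1 probe set was slightly higher there, at 7715 against 7384. The sum of 6 endothelial markers was 673.1 to 747.0 against 756.8 to 796.3, that of 4 macrophage markers 449.6 to 488.3 against 438.8 to 630.8, and that of 3 blood markers 1733 to 2117 against 1911 to 4724. Sums of 5 fibroblast markers were 4344 to 4637 against 3758 to 4249. Sums of 4 adipocyte (364.8 to 629.4 against 391.3 to 496.8), 4 smooth muscle (657.8 to 705.4 against 649.6 to 748.7) and 3 Schwann cell markers (324.5 to 460.1 against 345.0 to 416.0) overlapped. The defining macrophage gene Adgre1 read at most 10.1. The part of these cells in the clock values, and that of the time of day, was not tested. In whole muscle, fewer cells of a type and less RNA per cell cannot be told apart.

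Knockout was then compared with wild type, the question of the design. None of the 9 clock genes tested passed the threshold. In limma with Benjamini-Hochberg adjustment 0 passed an adjusted p of 0.05 and 0 an unadjusted p of 0.05. Over all probe sets tested 0% passed the adjusted threshold and 5.24% (334 of 6369) the unadjusted one. The groups did not overlap for 0 of the 9, against 10.7% of all probe sets tested. Adjusted p-values of the members ran from 0.937 to 0.997, and the lowest under any of 18 other settings was 0.53. The median log2 difference over the 9 was 0.10, with 6 higher and 3 lower in the knockout, beside -0.02 over all probe sets tested, with 2983 higher and 3386 lower.

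Tef had the smallest p among the members. It read 269.0 ± 24.4 without and 341.2 ± 72.3 with the deletion (SD, n = 3 each), a log2 difference of 0.32 ± 0.17 (SE; limma adjusted p = 0.94) with a 95% interval of -0.06 to 0.71. The difference was 0.50 without knockout replicate 1 and 0.19 without knockout replicate 3. Per1, at 110.0 ± 7.88 and 93.6 ± 25.2, differed by -0.26 ± 0.20 (95% interval -0.70 to 0.18). It was -0.11 without knockout replicate 3 and -0.47 without knockout replicate 2. Within the 4 arrays of the larger prefix the Per1 difference was -0.46 ± 0.17 (SE; limma adjusted p = 0.53). Knockout replicate 2, which had the highest Per1 of the 6 arrays, is not among them.

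For the genes that varied most between arrays the comparison was coarse. Dbp was 167.9 ± 78.7 and 172.7 ± 66.5 (SD, n = 3 each), a difference of 0.10 ± 0.38 (SE) whose 95% interval ran from -0.76 to 0.96. Arntl was 57.8 ± 32.1 and 47.6 ± 11.7, with -0.18 ± 0.37 and an interval of -1.02 to 0.66. These intervals hold changes of over 1.5-fold in either direction, so a difference of that size was not detectable here. Without wild-type replicate 1 both differences turned, to -0.34 for Dbp and 0.25 for Arntl.

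Intervals of the following members were narrower than those of Dbp and Arntl. The 95% interval was -0.34 to 0.36 for Nr1d2, -0.19 to 0.45 for Cry1 and -0.49 to 0.40 for Nr1d1. For Clock it was -0.37 to 0.59, and for Cry2, the least precise of these 5, -0.35 to 0.85. Per2 averaged 26.8 ± 8.89 without and 28.2 ± 11.6 with the deletion (SD, n = 3 each).

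**Figure D4:**
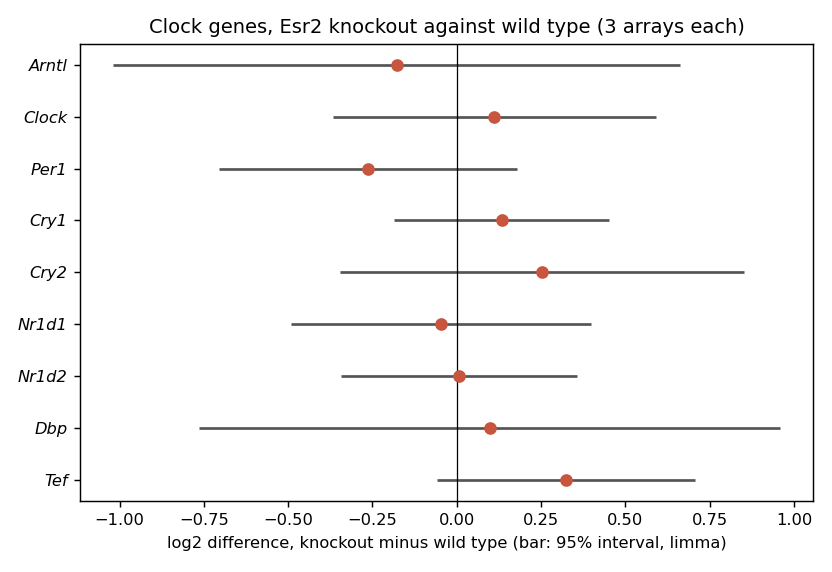
Log2 difference, knockout minus wild type (horizontal axis), of the 9 clock genes tested, with points for the limma estimate from 3 arrays a group and bars for the 95% interval. Each bar crosses 0, and the bars of Dbp and Arntl are the widest.

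Other genes of the clock were read from fixed lists, taking the brightest probe set of a gene. Of 18 regulators tested 0 passed, 9 were higher and 9 lower, with a median of 0.01. Csnk1a1, a casein kinase, read 411.8 ± 32.3 and 482.1 ± 26.7 (SD, n = 3 each), a difference of 0.23 ± 0.11 (SE; limma adjusted p = 0.93) without overlap. Among the 18 regulators the groups did not overlap for 1, beside 10.7% of all probe sets tested. The log2 difference was -0.22 for Nfil3, the repressor that competes with Dbp for D-boxes, and -0.21 for Per3. It was 0.11 for the kinase Csnk1d and -0.12 for the ubiquitin ligase subunit Fbxw11. Per3 read 86.6, 122.8 and 73.4 on the wild-type arrays and 75.3, 79.1 and 84.3 on those of the knockout, so it was high in wild-type replicate 2 but not in knockout replicate 2.

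Of 23 output genes tested 0 passed, 13 were higher and 10 lower, with a median of 0.05. Hexokinase Hk2 read 1588 ± 33.5 and 1823 ± 72.4 (SD, n = 3 each; limma adjusted p = 0.92) without overlap. Among the 23 outputs the groups did not overlap for 2, beside 10.7% of all probe sets tested. The deubiquitinase Usp2 differed by 0.29, glycogen synthase Gys1 by 0.18, the chaperone Hspa8 by -0.23 and Nampt, the enzyme of NAD synthesis, by 0.25. Usp2 was lowest in wild-type replicate 1 (654.7), the array with the lowest Dbp, and ran from 856.8 to 1056 on the others.

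Between the title prefixes 6 of these 23 outputs and 5 of the 18 regulators did not overlap, beside the 17.7% of all probe sets tested. Pdk4, the kinase that shuts down pyruvate oxidation, and the uncoupling protein Ucp3 are named here after their values were seen. Pdk4 read 1214, 3424 and 2325 on the wild-type arrays and 2629, 2807 and 1287 on those of the knockout. Ucp3 read 125.8, 299.6 and 219.4 on the wild-type arrays and 271.8, 300.2 and 173.1 on those of the knockout. Both were highest in replicate 2 of each group and lowest in wild-type replicate 1 and knockout replicate 3. Rora, a receptor that activates Arntl through the RORE, read 64.3, 63.0 and 92.7 on the wild-type arrays and 83.0, 46.7 and 67.8 on those of the knockout, lowest in replicate 2 of each group. It too was singled out after its values were seen.

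Because Per1 is also a glucocorticoid target, 18 such genes were read beside it. Of these 0 passed, 6 were higher and 12 lower in the knockout, with a median of -0.09. Dusp1, a phosphatase, read 1056 ± 215.7 and 787.1 ± 19.6 (SD, n = 3 each; limma adjusted p = 0.92) without overlap. Among the 18 the groups did not overlap for 1, beside 10.7% of all probe sets tested. The differences were -0.60 for Angptl4, -0.48 for the metallothionein Mt2, -0.28 for the kinase Sgk1 and 0.14 for Klf9. In 1 of the 18 the title prefixes did not overlap.

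The transcripts whose pattern was most like those of the clock genes were named by Pearson's r of log2 values over the 6 arrays, as a description of 6 arrays sharing a scaling. For Dbp they were Wipi2 (r = 0.995), Rps3 (0.99), Rell1 (0.97), Ppp2ca (0.96) and Nlrx1 (0.96), each with a log2 range of at most 0.62 where that of Dbp was 1.54. For Arntl they were Slc20a1 (0.98), Txndc9 (0.98), Mrpl35 (0.97), Ppt2 (0.96) and Sprr1b (0.96). For Per1 they were Copg1, Eif3m, Zfp622, Ryr3 and Gm15772, all at 0.97. No clock member was among these 15.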

How the data were processed

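The authors deposited 1 signal intensity per probe set and array on a linear scale. No source used here names the software behind these values, whose scaling was kept. Of 12488 probe sets 66 controls were set aside, and symbols came from the platform's annotation where it gave exactly 1 (10833 probe sets). The 20th percentile of the whole data set, 7.8, served as a floor before log2. Probe sets above the median, 39.4, on at least 3 of the 6 arrays (6369) were fitted with limma 3.58.1 in R 4.3.3 (eBayes with intensity trend; two-sided tests), and p-values were adjusted by Benjamini-Hochberg across them. An exact test of 3 against 3 cannot go below p = 0.1, and the number of arrays limits the precision. Correlations of Dbp with each member used all orderings of the arrays in Python 3.11.15. Promoter windows are RefSeq's.

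The members and gene lists were chosen with earlier results of these data known. The rule for named genes took every member probe set, the 5 genes of smallest p in each list, and the 5 genes most like Dbp, Per1 and Arntl. The fit was also run on simulated arrays with known changes and independent noise for each probe set. That simulation held no structure by title prefix, and no result here rests on it. Alternatives were other scalings, floors, filters, spread models, array weights, blocks and left-out arrays. The labels do not say that equal replicate numbers pair the samples, so they were not taken as pairs. Over all probe sets tested equal numbers did not deviate together (r = -0.0052, 0.035 and -0.0029). That value cannot decide the pairing for single genes such as Dbp.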

Additional observations from a re-analysis of the deposited data

How the results depend on the processing

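No clock gene of the main fit passed under any of the 18 alternatives in which it was tested. Arntl, Clock and Cry2 were not tested with the filter at the 70th percentile. Per2, absent from the main fit, was not followed in the alternatives. The number of probe sets called over the whole array was 0, and it was 1 without the filter, 1 with the replicate block of adjacent title numbers, and 0 to 1 with an array left out. The block narrowed the error of Dbp from 0.38 to 0.16 (SE; limma adjusted p = 0.97). Whether adjacent numbers pair animals is not stated in the labels. Among members, Nr1d2 turned to -0.0085 after quantile normalization, -0.024 with array weights and -0.11 over the 4 arrays sharing a prefix. The cause was not tested. Scaling to a common median shifts every probe set alike, so that the overall median was 0.050, that of the clock regulators 0.079 and the value of Nr1d1, near 0 before, 0.019.

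With arrays left out in turn, the log2 difference ran from -0.34 to 0.42 for Dbp, -0.44 to 0.25 for Arntl, -0.25 to 0.11 for Nr1d1 and -0.10 to 0.12 for Nr1d2. These 4 turned without wild-type replicate 1 and without knockout replicate 2, Nr1d1 also without wild-type replicate 3 and Nr1d2 without wild-type replicate 2. The others kept their direction, at 0.19 to 0.50 for Tef, -0.47 to -0.11 for Per1, 0.22 (without wild-type replicate 1) down to 0.015 (without knockout replicate 3) for Clock, 0.061 (without wild-type replicate 3) to 0.22 (without knockout replicate 3) for Cry1 and 0.057 (without wild-type replicate 1) to 0.49 (without wild-type replicate 3) for Cry2. The regulator median ran from -0.049 to 0.099 (without knockout replicate 1), and the index difference, -0.011, from -0.39 to 0.25. The alternatives for the relation of Dbp and Arntl were chosen after seeing the data, and rho stayed at -1.0 whichever array was left out (exact permutation p = 0.017 in each). The order of the index changed after quantile normalization and for Dbp minus Arntl alone.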
